A study of Mus musculus with 8 samples.

Results

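Liver tumours often switch back on genes that the fetal liver or liver progenitor cells use and the adult hepatocyte keeps low. The 10 genes described here belong to that group: the RNA-binding proteins Igf2bp1, Igf2bp2, Igf2bp3 and Lin28b, the chromatin proteins Hmga1 and Hmga2, the cell-surface proteins Gpc3 and Prom1, the secreted protein Spp1 and the transcription factor Sox9. They were chosen by name, as a list of oncofetal and progenitor genes used in liver cancer research, with earlier results of these data known. They are 10 of the 47434 genes in the deposited table after its transcripts were summed per gene, and 7 of them are among the 15840 genes tested.

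RNA was sequenced from Hepa 1-6, a line grown from a mouse hepatoma, in 8 libraries. In 4 libraries the labels give the genotype G9a knockout, and in 4 they give WT, the wild-type line from which the knockout was derived. No other allele, treatment, time or age is given. G9a is a histone methyltransferase. Its gene is Ehmt2, and its marks on histone H3 (mono- and dimethylated lysine 9) go with silent chromatin. How the gene was disrupted and how many clones the knockout cells represent is not in the labels. Nor do they say that libraries are separate cultures, so the p-values below reflect only the scatter of these libraries, part or all of which may be technical.

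Library totals lay between 58256100 and 75025236 counts. Levels are given in CPM, which sets every library to 1000000 counts after TMM normalization. Ehmt2 was at 117, 117, 120 and 119 CPM in the knockout libraries and at 345, 307, 298 and 307 CPM in the wild type. It fell by 1.41 ± 0.05 (SE) on the log2 scale, with an edgeR adjusted p of 3.82e-10, so its RNA was reduced and still present. Genotype separated along the first principal component (58.9% of the variance). On the second (8.6%), wild-type library 1 lay at -43.2 and the other wild-type libraries between -9.8 and 31.5. Of 15 hepatocyte markers, 6 were listed at 0 in all libraries, Alb, Ttr and Hnf4a among them. So were 26.7% of all 21792 protein-coding genes. Zeros in these data need care, as described below for Lin28b, and are given without a statement on expression. The hepatocyte list summed to 16 to 19.4 CPM in the knockout and 21 to 25.9 CPM in the wild type. Of the hepatocyte markers 4 were tested, with 1 higher and 2 lower. Over all genes tested, 23.6% were called higher and 23.6% lower, at an edgeR adjusted p under 0.05. Of 10 fibroblast and stellate cell markers 7 were tested, of which 5 rose and 0 fell. Their sum was 432 to 464 CPM in the knockout and 109 to 120 CPM in the wild type, nearly all of it Col3a1, while Lum was listed at 0 in every library. Endothelial markers summed to at most 6.56 CPM, macrophage markers to at most 20.8 CPM and lymphocyte markers to at most 0.419 CPM in any library. The part of these differences in the values below was not tested.

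The genes are linked by a well-known circuit. LIN28B is an RNA-binding protein that blocks the maturation of let-7, a family of small RNAs, and let-7 in turn represses Lin28b, Hmga2 and the Igf2bp genes by pairing with their 3′ untranslated regions (UTRs). IGF2BP proteins bind messenger RNAs, Igf2 and Myc among them, and protect or localise them. HMGA proteins bend AT-rich DNA and alter chromatin. Glypican-3, the product of Gpc3, is a heparan sulfate proteoglycan used as a tumour marker. Spp1 encodes osteopontin, a secreted ligand of integrins and CD44. SOX9 directs bile duct and progenitor cell identity, and prominin-1, the product of Prom1, is a surface marker of progenitor-like tumour cells.

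Small RNAs were not measured here, but the pairing sequence can be read from the reference. It is shown because Lin28b, Hmga2 and the Igf2bp genes are known let-7 targets. That these genes carry it is therefore not a result of these data. The 8 mature let-7 5p sequences in the RefSeq table share 1 seed, bases 2 to 8 from the 5′ end, in capitals in these 3 examples.
mmu-let-7a-5p: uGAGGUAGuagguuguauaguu
mmu-let-7d-5p: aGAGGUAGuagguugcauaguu
mmu-let-7i-5p: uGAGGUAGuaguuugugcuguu
Its exact complement, CTACCTC, was sought on the sense strand of the 3′ UTR of each gene's most abundant coding transcript, or of the longest where the gene had no counts (GENCODE mouse release 21, GRCm38). Hmga2, Igf2bp1 and Lin28b each held 4 matches. Igf2bp2, Igf2bp3 and Hmga1 each held 1, and Gpc3, Prom1, Spp1 and Sox9 held 0. The sites of Hmga2 and 1 site of each Igf2bp gene and of Hmga1 are given as 26 bases of the transcript with the match in capitals.
Hmga2, chr10:120364225-120364231, minus strand: cgccgacattcaatttCTACCTCagc
Hmga2, chr10:120362988-120362994, minus strand: tccccactcctcaataCTACCTCtga
Hmga2, chr10:120362550-120362556, minus strand: cctgatttgcaaggaaCTACCTCcac
Hmga2, chr10:120361692-120361698, minus strand: caatcaaaacacactaCTACCTCtta
Igf2bp1, chr11:95959358-95959364, minus strand: ccagcagtgctattaaCTACCTCagc
Igf2bp2, chr16:22059474-22059480, minus strand: aacacacaaataaaagCTACCTCagg
Igf2bp3, chr6:49086788-49086794, minus strand: gtgcatttttactcaaCTACCTCagg
Hmga1, chr17:27563292-27563298, plus strand: ctcctctgttcacaaaCTACCTCtgg
Coordinates are those of the 7 matching bases. The number of matches depends on the length of a UTR. In Hmga2, whose 3′ UTR has 2977 bases, 4 matches or more were found in 0.131% of the 1530 tested genes with a UTR of 0.8 to 1.25 times that length. For Igf2bp1, with 6337 bases, the share was 0.297% of 337 genes, and for Lin28b, with 4445 bases, it was 0.347% of 865 genes. A single match was common, found in 12.3% of genes of the length of Igf2bp2, 13.7% for Igf2bp3 and 8.53% for Hmga1 with at least 1. A match is a description of the sequence and not evidence of binding.

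The comparison of knockout with wild type asks how the RNA of the oncofetal genes differed in cells labelled G9a knockout. G9a protein was not measured here. Of the 7 tested genes, 1 rose (Spp1), 5 fell (Igf2bp1, Igf2bp2, Igf2bp3, Hmga2 and Sox9) and 1 did not pass the test (Hmga1). Over all 15840 genes tested, 47.2% were called at the same threshold, an edgeR adjusted p under 0.05, 23.6% as higher and 23.6% as lower. In bulk RNA, fewer cells with a transcript and less of it per cell cannot be told apart. The falls were between 1.14-fold and 1.57-fold and the rise was 1.95-fold. In a test against a 1.5-fold change Spp1 kept its call and 0 of the 5 falls passed. The median change over all genes was 0.004 on the log2 scale, and the median size of a change was 0.29. A change larger than that of Spp1 was seen in 13.4% of genes, and one larger than that of Hmga2 in 24.9%. In 4 of the lowered genes and in Spp1 no knockout library overlapped a wild-type library, as in 43.9% of all genes tested (22.5% with the knockout higher and 21.4% with it lower).

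**Figure D1:**
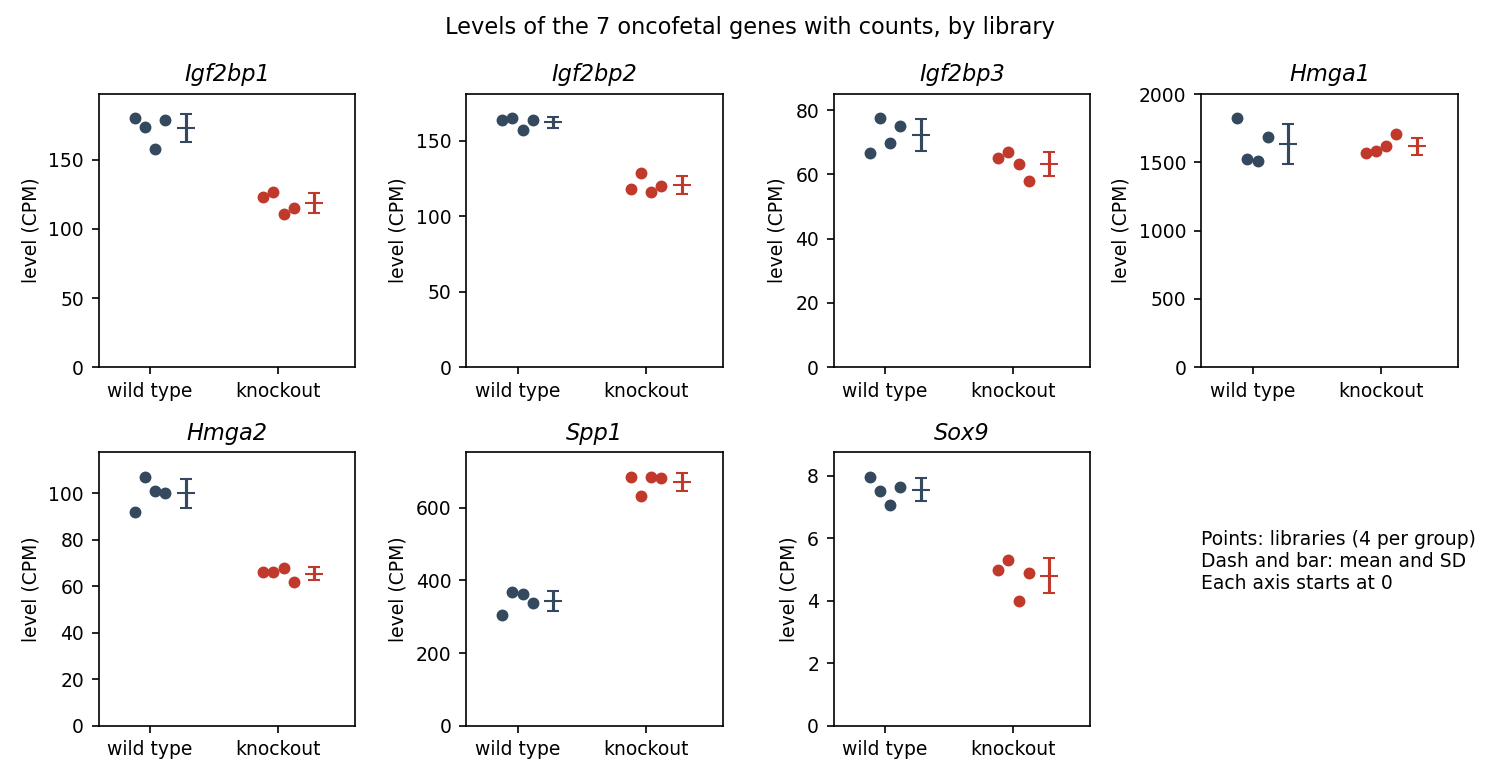
Level in CPM of each gene with counts, by library, in wild type (dark points) and G9a knockout (red points), with the mean and SD of 4 libraries beside the points and every axis starting at 0. The groups are apart in Igf2bp1, Igf2bp2, Hmga2, Spp1 and Sox9 and overlap in Igf2bp3 and Hmga1.

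Among the RNA-binding proteins, Igf2bp1 (ENSMUSG00000013415, chr11:95957163-96005940, minus strand) encodes the family member most tightly limited to fetal tissue and tumours. Its level was 123, 127, 111 and 115 CPM in the knockout libraries and 180, 174, 158 and 179 CPM in the wild type. The highest knockout library lay below the lowest wild-type library. The mean was 119 ± 7.54 CPM (SD, n = 4) against 173 ± 10.2 CPM (n = 4), and the gene fell by 0.54 ± 0.06 (SE) on the log2 scale, 1.45-fold, with an edgeR adjusted p of 5.35e-06. Nearly all of its counts, 99.3% or more in each library, were assigned to the transcript Igf2bp1-201.

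Igf2bp2 (ENSMUSG00000033581, chr16:22059009-22163299, minus strand), the paralog that remains active in many adult tissues, was at 118, 129, 116 and 120 CPM in the knockout and 164, 165, 157 and 164 CPM in the wild type. The groups did not overlap, and within each the libraries lay close together. It fell by 0.43 ± 0.05 (SE) on the log2 scale, 1.35-fold, with an edgeR adjusted p of 5.94e-06. The sum over its transcripts was far steadier than their split. The coding transcript Igf2bp2-201 took 14.6%, 43.2%, 66.0% and 84.6% of the counts in knockout libraries 1 to 4 and 52.5% to 70.5% in the wild type, and a transcript annotated as a retained intron took 71.0%, 46.8%, 28.8% and 7.77% and 23.0% to 43.9%. With so wide a spread inside a group no difference in transcript use is reported.

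Igf2bp3 (ENSMUSG00000029814, chr6:49085223-49214957, minus strand), another oncofetal paralog, was at 65.0, 66.8, 63.3 and 57.9 CPM in the knockout and 66.6, 77.4, 69.6 and 75.0 CPM in the wild type. The lowest wild-type library, library 1, lay within the knockout range. It fell by 0.19 ± 0.06 (SE) on the log2 scale, 1.14-fold, with an edgeR adjusted p of 0.0215. The call did not hold in each setting: scaling by library size alone gave -0.11 with an adjusted p of 0.169, upper quartile scaling -0.13 with 0.0963, and a fit on genes of at least 5 CPM -0.15 with 0.0512. Without knockout library 4, wild-type library 2 or wild-type library 4 the edgeR adjusted p was 0.0709, 0.0764 or 0.0663. The gene overlaps Malsu1, which lies on the other strand at 26.5 CPM in the knockout and 25.4 CPM in the wild type. Whether the counting used strand is not given in the sources used here.

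Levels of different genes were compared per length, as TPM, counts over transcript length scaled to 1000000. Igf2bp2 was the most abundant of the family, at 61.3 ± 5.62 TPM in the knockout and 78.8 ± 1.98 TPM in the wild type (SD, n = 4). Igf2bp1 followed in the wild type with 41.3 ± 2.55 TPM, above Igf2bp3 with 32.7 ± 1.69 TPM. In the knockout Igf2bp1 and Igf2bp3 were at 30.3 ± 3.42 and 30.5 ± 2.67 TPM, closer together than their spread. The family summed to 114 to 136 TPM in the knockout libraries and 146 to 157 TPM in the wild type. Igf2bp3 made up 23.0% to 26.7% of that sum in the knockout and 20.6% to 22.1% in the wild type, Igf2bp1 23.5% to 26.4% and 25.8% to 28.4%, and Igf2bp2 46.9% to 53.5% and 51.0% to 52.6%. The family was thus smaller in the knockout, with a share of Igf2bp3 that did not overlap between the groups. These shares were not tested. All of them, that of Igf2bp3 included, and the family sum rest on the uneven split of Igf2bp2 between transcripts of different length. The TPM of Igf2bp2 includes its transcript annotated as a retained intron.

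Lin28b (ENSMUSG00000063804, chr10:45376620-45486395, minus strand), the let-7 inhibitor, was listed at 0 in all 8 libraries. By counting error alone, such a 0 is compatible with 3 counts in a library, or 0.04 to 0.0515 CPM. The zeros of this table need care, because Itgb1, the integrin subunit that nearly every cell uses, was also listed at 0 in all libraries over its 4 transcripts. In contrast, 0 of 72 ribosomal and 0 of 75 mitochondrial ribosomal protein genes were at 0 throughout. Of all 21792 protein-coding genes, 26.7% were listed at 0 in every library. For Lin28b, represented by 1 transcript in the table, the listing is therefore given without a statement on its expression. Its paralog Lin28a was at 0.014 CPM in the knockout and 0 in the wild type.

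Of the high mobility group genes, Hmga2 (ENSMUSG00000056758, chr10:120361275-120476469, minus strand) is the fetal member and the textbook let-7 target. It was at 65.9, 66.0, 68.0 and 61.7 CPM in the knockout and 91.9, 107, 101 and 100 CPM in the wild type. The groups were well apart, with the lowest wild-type library, library 1, still above every knockout library. The gene fell by 0.61 ± 0.05 (SE) on the log2 scale, 1.53-fold, with an edgeR adjusted p of 1.01e-06. The transcript Hmga2-201, which carries the 4 let-7 matches, held 92.8% to 97.1% of its counts in the knockout and 94.7% to 97.2% in the wild type.

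Hmga1 (ENSMUSG00000046711, chr17:27556497-27563674, plus strand), the paralog found at high levels in most proliferating tumour cells, was at 1565, 1580, 1622 and 1705 CPM in the knockout and 1822, 1523, 1508 and 1685 CPM in the wild type. The knockout values lay inside the wild-type range, whose highest value came from library 1. The log2 difference was -0.01 ± 0.06 (SE), with an edgeR adjusted p of 0.863, and its sign turned under scaling by library size alone (0.065) and in 6 other settings. The near-identical gene copy Hmga1b on chromosome 11 was at 169 ± 14.0 CPM in the knockout and 165 ± 15.3 CPM in the wild type (SD, n = 4), a log2 difference of 0.03 ± 0.07 (SE). Reads of the 2 copies may have been assigned to either, so both levels are uncertain. Per length, Hmga1 was the most abundant of the oncofetal genes, at 1977 ± 82.5 TPM in the knockout and 1867 ± 214 TPM in the wild type, ranks 72 and 85 of 15840 genes. Its TPM was 52.5 to 62.3 times that of Hmga2 in the knockout libraries and 30.8 to 44.0 times in the wild type, a description that was not tested.

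Of the surface and secreted proteins only Spp1 had counts. Spp1 (ENSMUSG00000029304, chr5:104435118-104441050, plus strand) was at 685, 632, 684 and 681 CPM in the knockout and 306, 368, 362 and 337 CPM in the wild type. Every knockout library was far above every wild-type library, and the lowest of them, library 2, stood below its 3 close neighbours. The mean was 671 ± 25.4 CPM against 343 ± 27.9 CPM (SD, n = 4 each), and the gene rose by 0.97 ± 0.06 (SE) on the log2 scale, with an edgeR adjusted p of 2.33e-08. Per length it was at 962 ± 13.1 TPM in the knockout and 468 ± 36.6 TPM in the wild type, rank 154 and rank 312, second to Hmga1 among the genes described. The split between transcripts was uneven in both groups, with Spp1-201 at 54.4% to 82.9% of the counts in the knockout and 58.8% to 76.9% in the wild type.

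The rise of Spp1 went along with a rise of the genes around it. The 40 nearest expressed genes, 20 on each side whose mean reached 5 CPM, had a median log2 change of 0.32. With that local median taken out, Spp1 still rose, by 0.64 on the log2 scale, with an edgeR adjusted p of 1.24e-06. For the other tested genes the median of the neighbours lay between -0.11 (Sox9) and 0.03 (Hmga1), and the calls stayed the same without it. Dmp1, a relative of Spp1 in the same chromosome 5 gene cluster that encodes a bone matrix protein, was at 15.2 ± 0.731 CPM in the knockout and 0.853 ± 0.243 CPM in the wild type (SD, n = 4). It rose by 4.15 ± 0.16 (SE) on the log2 scale, with an edgeR adjusted p of 6.74e-10. The other relatives listed, also on chromosome 5, were at or near 0 and were not tested. Ibsp was at 0.0408 CPM and Mepe at 0.0285 CPM in the knockout, both were at 0 in the wild type, and Dspp was at 0 throughout.

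**Figure D2:**
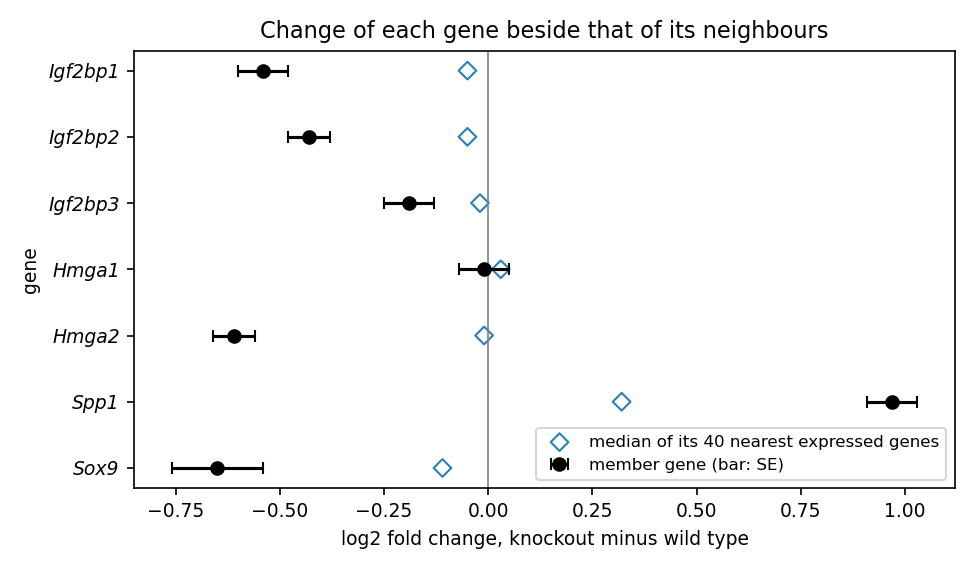
Log2 fold change, knockout minus wild type, of each tested gene (black points, bars are the SE) and the median over its 40 nearest expressed genes (open diamonds). The diamonds lie between -0.11 and 0.03 except at Spp1, where the median is 0.32.

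Gpc3 (ENSMUSG00000055653, chrX:52272426-52613950, minus strand) and Prom1 (ENSMUSG00000029086, chr5:43993620-44102032, minus strand) were listed at 0 in all 8 libraries. The table holds 2 transcripts of Gpc3 and 19 of Prom1. The limits given above for Lin28b hold for them too.

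Sox9 (ENSMUSG00000000567, chr11:112782224-112787760, plus strand), the progenitor transcription factor, was the least abundant of the genes with counts. It was at 4.99, 5.3, 3.99 and 4.89 CPM in the knockout and 7.96, 7.51, 7.07 and 7.64 CPM in the wild type. The groups did not overlap. It fell by 0.65 ± 0.11 (SE) on the log2 scale, 1.57-fold, with an edgeR adjusted p of 0.000324. Its level per length, 2.37 ± 0.339 TPM in the knockout and 3.54 ± 0.198 TPM in the wild type (SD, n = 4), placed it at rank 11195 and 10265 of 15840.

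The 250 bases before the first of 2 starts of Spp1 and before the start of Hmga2 are shown as those of the gene that rose and of one that fell, since G9a acts on chromatin (RefSeq, GRCm38.p6, motif matches in capitals).
Spp1, chr5:104434861-104435110, plus strand: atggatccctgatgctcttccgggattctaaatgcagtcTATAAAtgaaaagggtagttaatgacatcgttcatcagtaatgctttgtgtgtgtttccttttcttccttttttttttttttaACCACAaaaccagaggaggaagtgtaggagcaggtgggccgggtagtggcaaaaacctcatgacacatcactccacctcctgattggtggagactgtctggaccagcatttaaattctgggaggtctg
Hmga2, chr10:120476470-120476719, minus strand: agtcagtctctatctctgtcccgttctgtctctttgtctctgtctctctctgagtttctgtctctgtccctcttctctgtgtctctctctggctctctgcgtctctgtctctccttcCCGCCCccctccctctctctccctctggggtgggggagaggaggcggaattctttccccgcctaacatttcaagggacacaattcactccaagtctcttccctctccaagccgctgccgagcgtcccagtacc
On both strands 6 motifs were sought: the TATA box (TATAAA), the GC box (GGGCGG), the AP-1 site (TGACTCA), an E-box (CACGTG), the RUNX site (TGTGGT) and the RBPJ site (GTGGGAA). Over all 32851 promoters of the same length they were found in 12.4%, 32.7%, 4.46%, 6.02%, 14% and 5.42%. The Spp1 window shown held 1 match to TATAAA, toward the end of the window that is far from the start. It also held 1 match to the RUNX site, read as ACCACA on this strand. Hmga2 held 1 match to the GC box, read as CCGCCC. These are matches of letters only. The window of the other Spp1 start (chr5:104435942-104436191, plus strand) held 0 matches to the 6 motifs. Each Spp1 window had 3 CpG dinucleotides and the Hmga2 window 8, where the median of all promoters was 6. Lin28b had 6, and the Prom1 windows had 9 and 3. The windows of Hmga1 (34 and 35 CpG at 2 starts), Igf2bp2 (40), Gpc3 (25) and Igf2bp3 (21) were richer. Of the genes described, 8 had a promoter in the table, and Igf2bp1 and Sox9 were not among them. Neither histone marks nor DNA methylation were measured, so these windows are shown as sequence only.

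The let-7 circuit around these genes was described from lists of genes by role, with the share of all tested genes (23.6% higher, 23.6% lower) as the background. These lists, like those that follow, were chosen with earlier results of these data known. Of 14 LIN28 partners and let-7 processing factors 13 were tested, of which 3 rose, 6 fell and 4 did not pass. The median log2 change was -0.13. Trim71, an oncofetal RNA-binding ubiquitin ligase that is itself a known let-7 target, was at 35.7 ± 3.16 CPM in the knockout and 55.5 ± 2.53 CPM in the wild type (SD, n = 4) and fell by 0.64 ± 0.07 (SE) on the log2 scale, with an edgeR adjusted p of 4.25e-06. Tut4, the uridylyl transferase that LIN28 recruits, fell by 0.39 ± 0.06 (SE), and Drosha, the nuclear nuclease that cuts primary microRNAs, fell by 0.31 ± 0.05 (SE). Dicer1 (0.35), Dis3l2 (0.5) and Hnrnpa1 (0.11) rose, and are named as the whole of that group after their values were seen. With local medians taken out 1 gene of the list rose, and Dicer1 lay among neighbours with a median of 0.44.

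Of 19 other let-7 target genes 17 were tested, of which 2 rose, 12 fell and 3 did not pass, with a median log2 change of -0.32. Ccnd2, which encodes the cell cycle protein cyclin D2, was at 24.0 ± 1.35 CPM in the knockout and 98.8 ± 1.09 CPM in the wild type (SD, n = 4), and fell by 2.04 ± 0.05 (SE) on the log2 scale, 4.12-fold, with an edgeR adjusted p of 1.49e-11. Arid3b, an AT-rich DNA-binding protein, was at 2.45 ± 0.157 and 8.78 ± 1.21 CPM and fell by 1.84 ± 0.13 (SE). Plagl2, a zinc finger protein, was at 48.3 ± 3.73 and 79.2 ± 3.7 CPM and fell by 0.71 ± 0.06 (SE). It lay among neighbours whose median was -0.56. Igf1r, the IGF receptor, and Ccnd1, which encodes cyclin D1, were the 2 that rose and are named after their values were seen. With local medians taken out, 7 of the let-7 targets fell rather than 12.

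Across the table, genes were grouped by the number of let-7 seed matches in the 3′ UTR of their most abundant coding transcript, a grouping chosen with the values above known. Of 12620 tested genes with a UTR, 11416 held no match, and 27.1% of these rose and 27.1% fell, with a median log2 change of 0.001. With 1 match, 23.6% of 1055 genes rose and 31.7% fell, and the median was -0.05. With 2 matches, 17.5% of 126 genes rose and 40.5% fell, and the median was -0.12. With 3 or more, 1 of 23 genes rose and 12 fell, and the median was -0.25, or -0.16 over the 21 genes other than Hmga2 and Igf2bp1. Genes with more matches also have longer UTRs. Among UTRs of 2000 to 6500 bases the share that fell was 28.6% of 2531 genes with no match, 34.7% of those with 1, 42.4% of 85 with 2, and 8 of 18 genes with 3 or more. Without Hmga2 and Igf2bp1 it was 6 of 16 (37.5%) with 3 or more, below the share with 2. The genes with the most matches, named after their values were seen, did not all fall. Nr6a1, a germ cell nuclear receptor, had 8 matches and fell by 0.68 on the log2 scale, among neighbours with a median of -0.35. Mcf2l and Nudt12 had 7 each, with log2 differences of -0.15 and 0.18 that did not pass the test (edgeR adjusted p of 0.501 and 0.323). Trim71 had 4. The 1 gene of the group that rose was Slc22a23 (0.26), with 3 matches. Local medians were not taken out of these shares. No test was made of these shares, no microRNA was measured, and the part of let-7 in them was not tested.

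**Figure D3:**
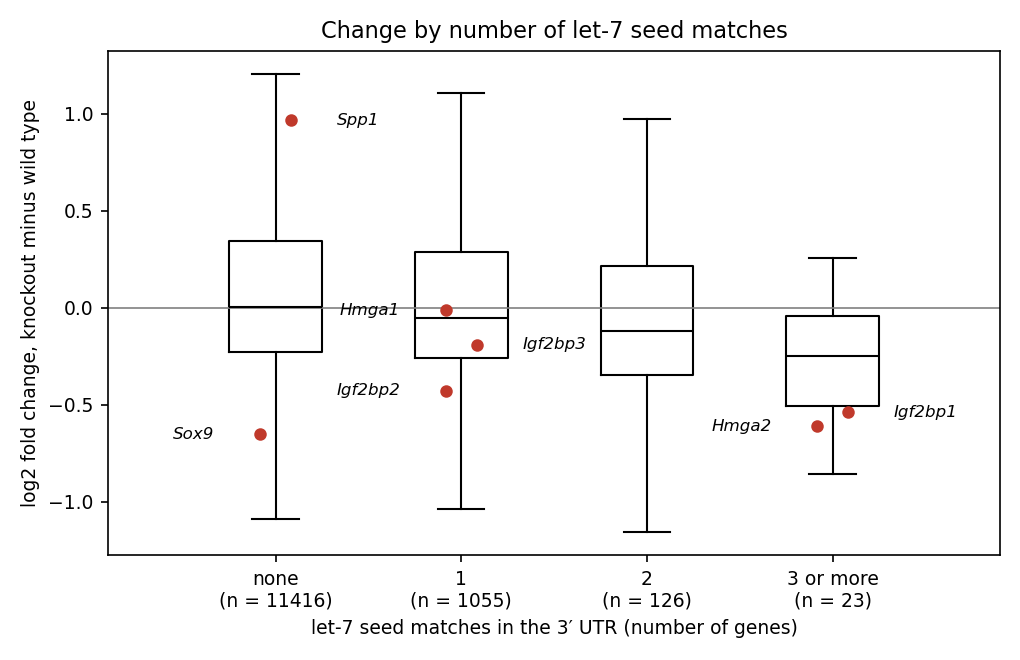
Log2 fold change, knockout minus wild type, of tested genes grouped by let-7 seed matches in the 3′ UTR (boxes are quartiles with the median, whiskers reach the last gene within 1.5 times the box, and genes beyond them are not drawn). Red points mark the oncofetal genes. The median is 0.001 in the 11416 genes with no match and -0.25 in the 23 genes with 3 or more.

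Of 9 IGF2BP protein partners, which are RNA-binding proteins found in the same particles, 0 rose, 8 fell and 1 did not pass, with a median log2 change of -0.18. Dhx9, an RNA helicase, was at 417 ± 14.5 CPM in the knockout and 573 ± 27.9 CPM in the wild type (SD, n = 4) and fell by 0.46 ± 0.05 (SE) on the log2 scale. Stau1, which binds double-stranded RNA, fell by 0.59 ± 0.05 (SE), beside a median of -0.59 over its neighbours, and Hnrnpu fell by 0.17 ± 0.03 (SE). With scaling by library size alone or by upper quartile 4 of the 9 fell, and without wild-type library 2 or with local medians taken out it was 5. In the IGF axis and among known IGF2BP client RNAs, 10 of 13 genes were tested, with 2 higher, 3 lower and 5 not called. Irs1, an adaptor of the insulin and IGF receptors, was at 5.9 ± 0.457 and 3.4 ± 0.26 CPM and rose by 0.79 ± 0.12 (SE). Its relative Irs2, at 11.7 ± 0.328 and 15.4 ± 0.277 CPM, fell by 0.40 ± 0.07 (SE). Igf2, the growth factor gene after which the family is named, was at 0 CPM in the knockout and 0.0151 CPM in the wild type, and was not tested.

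Around Gpc3, other heparan sulfate genes had counts, and the called ones were all higher. The list of 21 genes held glypicans, syndecans and heparan sulfate enzymes, with Cd81 and Furin added. Of these 15 were tested, of which 9 rose, 0 fell and 6 did not pass, with a median log2 change of 0.39. Cd81 was among those that rose and Furin among those that did not pass. Sdc3, a syndecan, was at 202 ± 8.48 CPM in the knockout and 78.1 ± 11 CPM in the wild type (SD, n = 4) and rose by 1.37 ± 0.08 (SE) on the log2 scale, with an edgeR adjusted p of 2.52e-08. Gpc6, a glypican, was at 17.6 ± 2.0 and 3.6 ± 0.811 CPM and rose by 2.29 ± 0.15 (SE). Cd81, a tetraspanin that binds glypican-3, was at 5.96 ± 1.13 and 1.13 ± 0.23 CPM and rose by 2.40 ± 0.19 (SE). With Gpc3, 4 more genes of this list were at 0 in every library.

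For osteopontin, 19 receptors, proteases and relatives were listed and 9 tested, with 5 higher, 3 lower and 1 not called. Mmp3, a protease that cuts osteopontin, was at 38.2 ± 1.83 CPM in the knockout and 2.18 ± 0.296 CPM in the wild type (SD, n = 4) and rose by 4.13 ± 0.10 (SE) on the log2 scale. Cd44, a receptor, was at 327 ± 16.2 and 456 ± 32.7 CPM and fell by 0.48 ± 0.06 (SE), the same as the median of its neighbours, -0.47. Its lower call was lost with the local median taken out, as were those of the other lowered genes of the list. After that correction 0 genes of the list fell and 6 rose, rather than 5. Itgav, a lowered integrin gene, had a log2 change of -0.21 beside a median of -0.57 over its neighbours. Before that correction Spp1 and Cd44 moved in opposite directions. Among 13 stem cell surface markers used in liver cancer, the class to which Prom1 belongs, 8 were tested, of which 3 rose and 5 fell. With local medians taken out 3 fell, as with genes under 5 CPM left out. Anpep, the aminopeptidase CD13, was at 9.47 ± 1.19 and 32.8 ± 0.934 CPM and fell by 1.79 ± 0.09 (SE). Cd47, the signal that restrains phagocytes, was at 92.5 ± 3.92 and 60.9 ± 4.87 CPM and rose by 0.60 ± 0.06 (SE).

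The genes that share a programme with Sox9 went both ways. Of 18 biliary and progenitor genes 11 were tested, with 3 higher, 3 lower and 5 not called, and a median log2 change of -0.03. Aqp1, the water channel of bile duct cells, was at 75.7 ± 1.71 CPM in the knockout and 14.5 ± 0.899 CPM in the wild type (SD, n = 4) and rose by 2.38 ± 0.06 (SE) on the log2 scale. Ncam1 was at 39.7 ± 3.1 and 13.6 ± 0.391 CPM and rose by 1.54 ± 0.07 (SE). Sox4, which acts with Sox9 in bile duct development, was at 57.7 ± 3.52 and 94.9 ± 4.95 CPM and fell by 0.72 ± 0.06 (SE), close to the size of the fall of Sox9. Notch and YAP signals act upstream of Sox9 in the liver. Of 21 genes of these pathways, their target genes included, 20 were tested, with 3 higher, 9 lower and 8 not called. The ligand gene Jag2 rose by 1.41 ± 0.09 (SE), from 19.8 ± 2.47 to 52.6 ± 5.2 CPM. The Notch target genes Hes1 and Nrarp fell by 0.52 ± 0.08 and 0.60 ± 0.07 (SE) on the log2 scale.

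Other oncofetal genes were mostly near 0. Of 11 such genes 4 were tested, with 1 higher, 1 lower and 2 not called. Afp, alpha-fetoprotein, the classical fetal liver and hepatoma serum marker, was at 133 ± 11.9 CPM in the knockout and 5.77 ± 0.567 CPM in the wild type (SD, n = 4) and rose by 4.53 ± 0.09 (SE) on the log2 scale, 23.1-fold, with an edgeR adjusted p of 2.12e-12. The 1 lowered gene was Trim71. Afp thus rose in the same libraries in which 5 of the oncofetal genes fell, and its neighbours on chromosome 5 had a median of 0.29. Of 9 other high mobility group genes, all tested, 3 rose, 2 fell and 4 were not called. Hmgn3, a nucleosome-binding protein, rose by 1.20 ± 0.08 (SE), from 16.1 ± 1.23 to 36.9 ± 3.32 CPM, while Hmgb3 and Hmgn2 fell by 0.24 ± 0.06 and 0.18 ± 0.05 (SE).

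**Figure D4:**
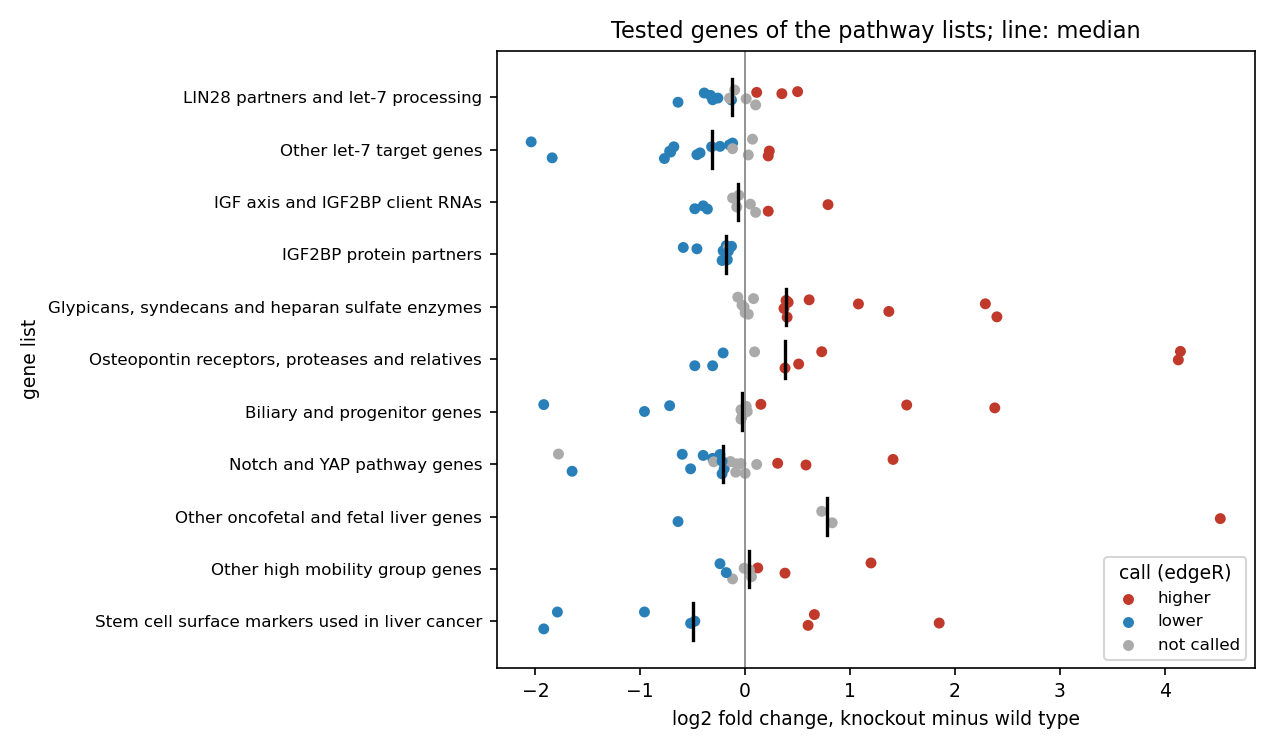
Log2 fold change, knockout minus wild type, of every tested gene in the lists around the oncofetal genes, coloured by the edgeR call (red higher, blue lower, grey not called), with a black line at each list's median. The medians lie between -0.5 and 0.78, with the heparan sulfate list at 0.39 and the other let-7 targets at -0.32.

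Finally, the genes whose profile over the 8 libraries was most like that of each called gene were sought among the 9977 whose mean reached 5 CPM. Likeness was the root mean square difference of log2 CPM, each gene taken relative to its wild-type mean. For Igf2bp1 these were Slc7a5 (0.032) and Rbmx (0.046), for Igf2bp2 Bcor (0.024) and Vash2 (0.026), and for Igf2bp3 Rab6a (0.038) and Gnpat (0.04). For Hmga2 they were Ttc21b (0.028) and Nup35 (0.035), for Sox9 Mertk (0.047) and Bcorl1 (0.051), and for Spp1 Cav1 (0.036) and Prcp (0.054). Such profiles were common for the small falls and rarer for Spp1: 860 genes came within 0.1 of Igf2bp3, 505 of Igf2bp2, 161 of Hmga2, 159 of Igf2bp1, 48 of Sox9 and 23 of Spp1. The profiles rest mainly on the difference between the groups. Ttc21b, Nup35 and Mertk lie on chromosome 2, where the median of the neighbours differed by place, at -0.59 for Stau1 and 0.02 for Nrarp. The part of such local shifts in the likeness was not tested.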

How the data were processed

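Poly-A RNA was sequenced from 4 G9a knockout and 4 wild-type libraries of Hepa 1-6. Per the labels' protocols, a SMARTer mRNA kit was used on TRIzol-extracted RNA. FastQC, Trimmomatic, HISAT2 and GRCm38.p6 are named, without versions, per the submitters' processing notes. For the counting tool the sources used here give no name. The table deposited by the authors holds estimated counts per transcript, whole numbers that are not normalized. Of 115220 transcripts, 114332 (99.23%) matched GENCODE mouse release 21. They were summed per gene, although the design had assumed counts per gene, and the 888 others, 0.148% to 0.17% of the counts, were left out.

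Groups were compared with edgeR 4.0.16 (quasi-likelihood test, two-sided, TMM, filterByExpr, Benjamini-Hochberg over 15840 genes) in R 4.3.3. A gene rose or fell at an adjusted p under 0.05. Standard errors derive from the F statistic. TPM used GENCODE transcript lengths. Intervals for 0 counts cover counting error only. On data simulated for this comparison, with 200 of 15479 genes changed, the share recovered by edgeR was 83.6% at a 1.5-fold change, 89.6% at 2-fold and 98.5% at 4-fold. Unchanged genes made up 19 of the 200 genes it called. In the real comparison a far larger share of genes, 47.2%, was called, so the simulated shares need not hold for it.

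The 10 genes and all lists were chosen with earlier results of these data known. Named by rule were these genes, Ehmt2, up to 3 called genes of lowest p per list, and the 2 most similar profiles per called gene. Not all of the marker genes so selected are described. Alternatives were DESeq2 1.42.0, limma-voom 3.58.1, a test against a 1.5-fold change, 3 scalings, 2 filters, a replicate block, removal of local shifts, and each library left out.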

Additional observations from a re-analysis of the deposited data

Results flagged for a closer look

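In 98 groups of 4 libraries, from 49 genes named or described, 1 library stood apart from the other 3 in 8 cases by Dixon's test, which flags about 1 group in 20 by chance. Of the oncofetal genes, Spp1 was at 632 CPM in knockout library 2 against 681 to 685 CPM in the other knockout libraries, a value still far above all wild-type libraries. Igf2bp2 was at 157 CPM in wild-type library 3 against 164 to 165 CPM in the others, above all knockout libraries. Of the other genes, Tut4 was at 64.6 CPM in wild-type library 1 against 74.0 to 75.8 CPM. Sox4 was at 63.0 CPM in knockout library 2 against 55.6 to 56.3 CPM. Mertk was at 24.2 CPM in knockout library 3 against 28.4 to 29.1 CPM, and at 39.5 CPM in wild-type library 3 against 44.1 to 44.9 CPM. Hmgb3 was at 35.7 CPM in wild-type library 4 against 31.6 to 32.2 CPM, and Hmgn2 at 304 CPM in wild-type library 3 against 296 to 297 CPM.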

How the results depend on the processing

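The member counts, the fold changes of the 7 tested members and the counts of 11 gene lists were recomputed under 18 alternatives, 8 of them with 1 library left out. Single list genes, TPM levels, let-7 groups and profiles were not. The count of oncofetal genes that rose was 1 in all of them. The count that fell was 5, was 4 to 5 with a library left out, was 4 with library sizes alone, upper quartile scaling or a limit of 5 CPM, and was 0 in the test against a 1.5-fold change. Spp1 kept its call in all 18, with log2 changes of 0.644 to 1.045. Igf2bp1 (-0.581 to -0.459), Igf2bp2 (-0.455 to -0.348), Hmga2 (-0.651 to -0.531) and Sox9 (-0.697 to -0.547) lost theirs in the 1.5-fold test alone. Igf2bp3 (-0.228 to -0.11) lost its call in 7. Hmga1 changed sign in 7, to 0.065 with library sizes alone, 0.043 with upper quartile scaling, 0.025 with a limit of 5 CPM, and 0.001, 0.003, 0.04 and 0.003 without knockout library 1 or 2 or wild-type library 1 or 4. With a library left out its range was -0.053 to 0.04, and it passed the test in none of the 18.

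Over all genes, library sizes alone gave 4543 higher and 2742 lower calls (62.4% higher) against 3742 and 3734 (50.1%), and moved the median log2 change to 0.084. The test against a 1.5-fold change gave 1191 and 465. Of 396 list counts 363 stayed within 1.5 times their value, and 17 of the 33 others came from the 1.5-fold test. There 2 other let-7 targets fell rather than 12, 0 IGF2BP partners rather than 8 and 1 Notch or YAP gene rather than 9. In the heparan sulfate list 4 genes rose rather than 9. Of the 16 others, 4 IGF2BP partners fell with library sizes alone or upper quartile scaling and 5 with all genes kept, local shifts removed or without wild-type library 2. With local shifts removed, 7 other let-7 targets, 3 stem cell markers and 0 osteopontin genes fell, and 1 LIN28 partner rose. With library sizes alone 1 osteopontin gene fell, and with it or upper quartile scaling 1 high mobility group gene. With a limit of 5 CPM, 1 biliary gene and 3 stem cell markers fell and 1 IGF gene rose. Without knockout library 4, 2 other oncofetal genes rose.

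Deviations of same-numbered libraries had correlations of -0.284 to 0.383 over 4 pairs, beside -0.351 to 0.306 for libraries of unlike number. In each group 2 of 4 correlated best with their own number. So few pairs cannot settle whether same-numbered libraries deviate together. With the replicate number as a block, 1 oncofetal gene rose and 5 fell, and 3643 of all genes rose and 3612 fell. Of the tested members Sox9 had the lowest counts. Causes of these differences were not tested.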
